A study of Mus musculus with 2 samples.

Results

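Read depth along the genome of 266.6 cells was measured in windows of 1 Mb, each starting at a multiple of 1000000 on chromosomes 1 to 19 of the mouse build mm9. A window was kept when 800 or more of its 1 kb bins held at least 1 input read, and 2321 of 2482 windows met that rule. Depth is the number of distinct input reads (1 per position and strand) per covered kb, where a covered kb is a bin with an input read, and bins above the 99th percentile of 35 reads were set to it. Chromosome X, of which 138 windows met the same rule, served as the unit for folds and was not itself a member.

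The study mapped the DNA sites of Ptf1a in 266.6 cells, to be set beside genes expressed in embryonic pancreatic buds with and without the factor. There were 2 groups with 1 library each, a Ptf1a ChIP library and an input library made with no antibody, both from 266.6 cells of C57BL/6 X SJL background at passage 26. Cells of both groups were fixed with 1% formaldehyde for 10 min and their chromatin was broken to 100 to 500 bp, and the ChIP library joined 2 immunoprecipitations, cut from a gel at 100 to 400 bp. The line is 1 transformed line, derived from an acinar tumour of a mouse carrying simian virus 40 T antigen under an elastase promoter, so its genome stands for that line and not for normal pancreas. No second passage, second clone or normal mouse DNA was analysed here.

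Ptf1a is a basic helix-loop-helix factor needed to form the pancreas and to keep acinar cells producing digestive enzymes. Input chromatin is not selected for any protein, so a stretch present in more copies per cell gives more input reads. Base composition, open chromatin, DNA replication and how uniquely reads can be placed also move input depth over megabases. Tumour lines often gain or lose whole chromosomes, and a DNA stretch with more copies gives more reads in ChIP libraries too, bound or not. Depth is therefore reported below as depth, and a difference in depth is not by itself a count of copies. Copy number cannot be told apart here from base composition, which was not computed because the mm9 genome was not used here. For the same reason no gene was placed on a window.

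The input library held 27959618 placed reads, of which 27038915 were distinct, and the ChIP library held 28502488, of which 25597333 were distinct. The median kept window had 965 covered bins and 10545 distinct input reads, and the lowest window had 3665, so counting error of a window was small beside the spread between windows. The rule cut across ordinary depths. The windows just inside it, with 803, 815 and 819 covered bins, had depths of 7.33, 10.6 and 7.02 reads per kb. Those just outside, with 799, 796 and 795 covered bins, had 19.8, 6.30 and 14.6 reads per kb.

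Over the 2321 windows the median input depth was 10.9 reads per kb and the range was 4.15 to 29.0. The median of ChIP reads outside listed sites was 9.23 per kb, counted over bins more than 1 kb from any listed Ptf1a position. The shallowest windows were a neighbouring pair on chromosome 4 (chr4:113000001-114000000 at 4.15 reads per kb and chr4:112000001-113000000 at 4.25). Neither held a listed site, and their ChIP depths were 3.59 and 3.68. The deepest was chr5:36000001-37000000, with 29.0 input reads per kb, 22.1 ChIP reads per kb and 70 listed sites. The next deepest lay on chromosome 15 from 78000001 (27.1 reads per kb), on chromosome 5 from 140000001 (26.6) and on chromosome 15 from 85000001 and 84000001 (26.2 and 26.1).

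Whole chromosomes differed in level. Chromosomes 5 and 15 stood highest, with medians of 15.5 and 15.4 input reads per kb, and chromosomes 12 and 13 lowest, with 8.78 and 8.82. The highest median was 1.76 times the lowest in the input, and 1.72 times in the ChIP reads outside listed sites. Chromosome X had a median of 4.31 input reads per kb, so chromosomes 5 and 15 lay at 3.59 and 3.57 times X, and chromosomes 12 and 13 at 2.04 and 2.05 times X. In the ChIP reads the same folds of X were 3.43, 3.46, 2.02 and 2.05. All 19 chromosomes were deeper than X in both libraries.

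The other 15 chromosomes filled the space between without a gap. Chromosomes 11 and 19 had medians of 13.3 and 13.2 reads per kb, or 3.09 and 3.07 times X. Chromosomes 17, 7, 16, 4, 10 and 1 followed at 12.4, 12.1, 11.9, 11.7, 11.5 and 11.0 reads per kb (2.88 to 2.56 times X). Chromosomes 3, 9, 14 and 6 had 10.6, 10.5, 10.3 and 10.1 reads per kb (2.46 to 2.33 times X). Chromosomes 8, 18 and 2 had 9.81, 9.67 and 9.26 reads per kb (2.28 to 2.15 times X). The largest ratio of medians between neighbours in this order was 1.15, and in 0 of 18 neighbouring pairs did the quartile ranges over windows separate. Neighbours in the order thus did not differ beyond the spread of their windows. Only 20.5% of the variance of log2 depth over windows lay between chromosomes, and the rest lay within them. Windows of 1 library are not replicates, so no test was made of these levels.

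**Figure D1:**
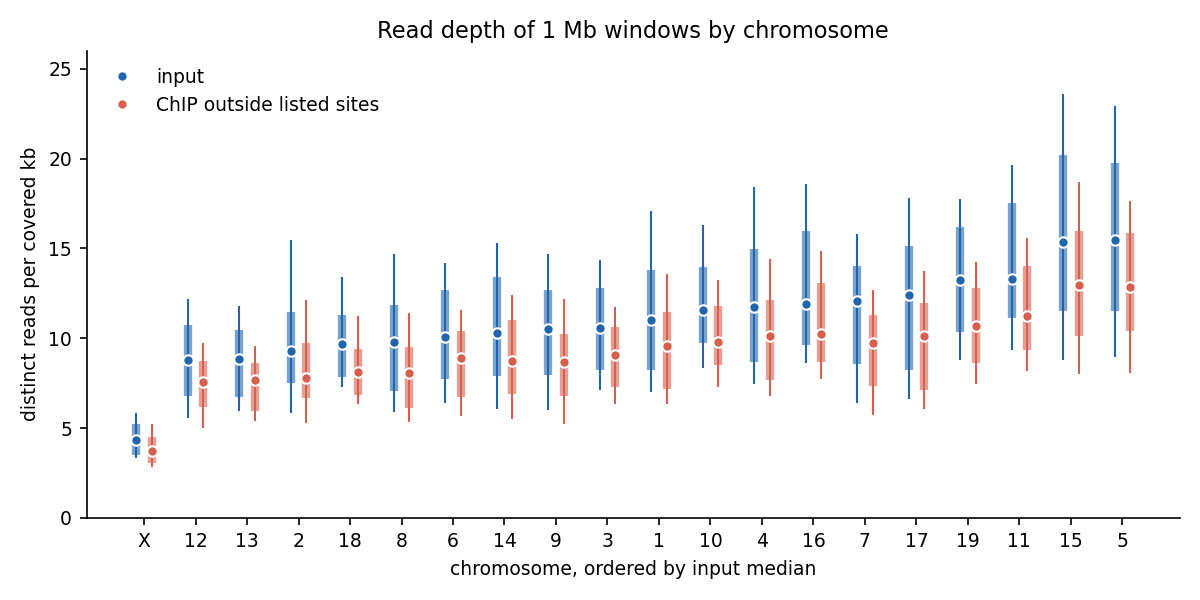
Median depth of 1 Mb windows in distinct reads per covered kb (vertical axis) for chromosomes X and 1 to 19, ordered by the input median, with input in blue and ChIP reads outside listed sites in red. Points are medians over windows, thick bars quartile ranges and thin lines the range from the 10th to the 90th percentile; chromosomes 5 and 15 lie highest in both libraries, and their lower ends lie near the medians of chromosomes 12 and 13.

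The gap between the highest and lowest chromosomes ran through their whole range of windows. The 10th to 90th percentile range was 8.96 to 23.0 reads per kb on chromosome 5 and 8.80 to 23.6 on chromosome 15. It was 5.55 to 12.2 on chromosome 12 and 5.93 to 11.8 on chromosome 13. The 10th percentile of chromosome 5 therefore lay above the median of chromosome 12. When each percentile was divided by the same percentile of X, chromosome 5 stood at 2.70 at the 10th and 3.92 at the 90th percentile, and chromosome 15 at 2.66 and 4.02. Chromosomes 12 and 13 stood at 1.68 and 1.79 at the 10th and at 2.08 and 2.01 at the 90th. At the 10th percentile the highest of all was chromosome 11, with 2.81, while chromosomes 16 and 19 had 2.60 and 2.64. The place of chromosomes 5 and 15 at the top of the order thus held for the median and the 90th percentile but not for the 10th.

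The ChIP library gave nearly the same order of windows as the input, with a Spearman correlation of 0.99 over 2321 windows, which share cells, build and base composition. Its contrast was smaller. Within chromosomes log2 ChIP depth rose by 0.875 per unit of log2 input depth, and single chromosomes ran from 0.836 (chromosome 16) to 0.927 (chromosome 9). Over the 19 chromosome medians the slope was 0.94, nearer to equal change. As a result some chromosomes had more ChIP reads than others at the same input depth, by a few percent. Chromosome 15 lay 3.07% above the common line within chromosomes, chromosome 5 2.74% above it and chromosome 16 2.11% above it. Among chromosomes 1 to 19, chromosome 8 lay lowest at -2.59%, followed by chromosomes 7, 12, 9 and 13 at -2.33, -2.23, -2.22 and -2.19%. Chromosome X, which took no part in that line, lay at -9.16% and had a slope of 1.02 of its own. The Spearman correlation of chromosome median and this offset was 0.68 over 19 chromosomes, with the shallow chromosomes 12 and 13 low and the deep chromosomes 5 and 15 high. Some chromosomes went against that order. Chromosome 7 is deep with a low offset (-0.03 on the log2 scale), and chromosomes 17 and 19, which are deeper, had offsets of -0.013 and -0.0047. Chromosome 3 is below the median with an offset of 0.01. No cause of the offsets was tested.

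Inside chromosomes, depth alternated between shallow and deep stretches of several megabases. A least-squares change point search on log2 input depth, with segments of at least 5 windows and steps of at least 0.25 on the log2 scale (the smallest found was 0.25), gave 168 segments and 149 steps. Read from the start of a chromosome, 81 steps went up and 68 went down. Every one of the 19 chromosomes had steps, from 4 on chromosomes 16, 18 and 19 to 12 on chromosomes 4 and 5. The segments held 5 to 43 windows with a median of 11. Their depths ran from 1.16 to 5.59 times the median of X. The median step was 0.69 on the log2 scale, a 1.62-fold change in input depth.

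Steps were about as dense on chromosome X, whose windows gave 8 steps, or 5.80 per 100 windows, against 6.42 per 100 windows on chromosomes 1 to 19. Segments of X ran from 3.4 to 5.45 input reads per kb. Its lowest segments, chrX:104000001-130000000 at 3.4 and chrX:76000001-88000000 at 3.41, each held 8 listed sites. The highest, chrX:5000001-14000000 at 5.45, held 81 sites. The SD of log2 depth over windows was 0.33 on X, and 0.35 (chromosome 18) to 0.52 (chromosome 17) on chromosomes 1 to 19.

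The deepest and shallowest segments of a chromosome lay farther apart than the chromosome medians did. These are unlike measures, since segments are shorter than chromosomes and were placed at changes in depth. The deepest segment of a chromosome had 1.83 to 3.08 times the depth of its shallowest, with a median of 2.43 over 19 chromosomes. Chromosome 2 had the widest range, from 4.99 reads per kb at chr2:95000001-100000000 to 15.4 at chr2:24000001-36000000. Chromosome 3 had the narrowest, from 7.08 at chr3:110000001-116000000 to 12.9 at chr3:79000001-110000000. The lowest segments of chromosomes 5 and 15 (chr5:55000001-63000000 and chr15:13000001-25000000) had 8.50 and 8.74 reads per kb. Those of chromosomes 12 and 13, the chromosomes of lowest median (chr12:61000001-70000000 and chr13:75000001-91000000) had 5.16 and 5.97. Chromosomes 16 and 19 had lowest segments above those of chromosomes 5 and 15, at 9.13 and 8.99. The highest segments were at 24.1 for chr5:33000001-39000000 and 21.5 for chr15:72000001-103000000, against 12.1 for chr12:99000001-115000000 and 12.4 for chr13:48000001-61000000.

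Each step placed in the input was looked up in the ChIP reads outside listed sites, which took no part in placing it. In 149 of 149 steps the ChIP depth moved the same way by at least 0.5 of the input step. The background was high, since neighbouring windows anywhere met that rule in 86.9% of pairs, so the count itself says little beyond the likeness of the libraries. The ChIP step was most often the smaller, with a median of 0.87 of the input step on the log2 scale and a range of 0.70 to 1.09. Only 7 steps were as large or larger in the ChIP reads, among them those at 94000000 of chromosome 11 (1.09), at 17000000 of chromosome 10 (1.09) and at 60000000 of chromosome 9 (1.05). The smallest share, 0.70, was at 99000000 of chromosome 12. The quartile ranges of the segments on either side lay apart in 142 steps in the input and in 139 in the ChIP reads. On chromosome X, whose 8 steps are not counted here, the ChIP step had 0.94 to 1.09 of the input step, with a median of 1.00.

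**Figure D2:**
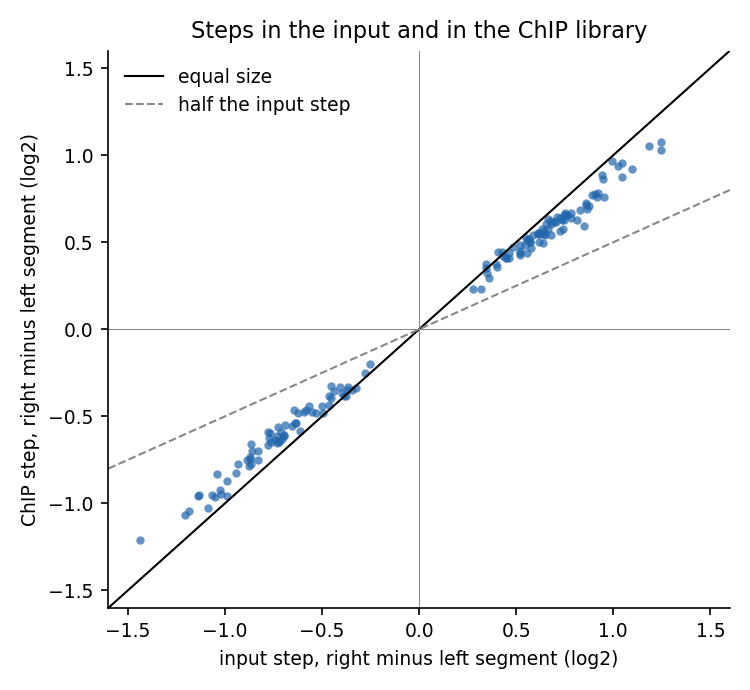
Size of each of 149 steps as the difference of segment medians, right minus left, in log2 distinct reads per covered kb, in the input (horizontal axis) and in ChIP reads outside listed sites (vertical axis). Each point is 1 step, the solid line marks equal size and the dashed line 0.5 of the input step; the points follow a line slightly flatter than equality, with a median share of 0.87.

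The largest step was at 37000000 of chromosome 17, where input depth fell from 17.8 to 6.57 reads per kb, a 2.71-fold change. ChIP depth fell there from 13.9 to 6.01, which is 2.32-fold. The shallow segment, chr17:37000001-43000000, was 6 windows long, and depth rose again at its right end from 6.57 to 15.6 reads per kb (2.37-fold, ChIP 2.04-fold). At 24000000 of the same chromosome depth rose from 7.52 to 17.8 reads per kb (2.37-fold, ChIP 2.11-fold), so chromosome 17 held the 3 steps of largest fold.

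Chromosome 2 held a short deep segment, chr2:90000001-95000000, at 11.5 reads per kb between segments at 5.08 and 4.99. Its left step was 2.27-fold (ChIP 2.08-fold) and its right step 2.31-fold (ChIP 2.09-fold). On chromosome 1 depth fell at 141000000 from 16.3 to 7.15 reads per kb (2.27-fold, ChIP 2.06-fold) and at 96000000 from 17.7 to 8.05 (2.19-fold, ChIP 1.94-fold). On chromosome 11 it fell at 9000000 from 16.8 to 7.60 reads per kb (2.20-fold, ChIP 1.94-fold). Chromosome 4 rose at 114000000 from 8.05 to 17.2 reads per kb (2.14-fold, ChIP 1.90-fold), next to the 2 shallowest windows of all. The remaining steps of the 12 largest were falls on chromosome 9 at 78000000 (15.5 to 7.28 reads per kb), chromosome 10 at 45000000 (16.2 to 7.72) and chromosome 18 at 85000000 (13.7 to 6.60). Their folds were 2.12, 2.10 and 2.07 in the input and 2.04, 1.93 and 1.95 in the ChIP reads. In all 12 the quartile ranges over windows of the segments on either side lay apart in both libraries. The widest shallow side was that of chromosome 4, with quartiles of 4.25 and 9.50 reads per kb against 15.5 and 18.5 on the deep side.

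Listed Ptf1a sites were denser on the deeper side of a step. Sites were counted per covered Mb in up to 10 windows on each side, and the deeper side had more in 149 of 149 steps. Among 54 pairs of adjacent blocks of 10 windows inside 1 segment, used as the background, the deeper block had more sites in 72.2%. The median ratio over steps was 3.54, with quartiles of 2.39 and 5.34, against 1.23 in the block pairs. A ratio above 1.5 was found in 142 steps, and in 24.1% of the block pairs. The block pairs differed less in depth, with a median input fold of 1.09, so they show the change in sites without a step and not at an equal change in depth.

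Sites as listed changed by more than depth did at most steps. The ratio of sites exceeded the fold of input depth in 142 of 149 steps, and its median over the input fold of the same step was 2.14. How far that excess depends on the lowest height of the list was looked at by raising that height. It was raised on the deeper side alone, in proportion to the input fold, which can only lower the ratio. With the height so raised, the median ratio of sites was 1.90, beside a median input fold of 1.62. The ratio then exceeded the input fold in 103 steps, with a median of 1.23 over that fold, and 7 steps no longer had more sites on the deeper side. The excess was thus smaller with the raised height, and its cause was not tested. With all listed sites, 7 steps did not exceed the input fold, among them 68000000 of chromosome 2 (sites 1.11, input 1.25), 68000000 of chromosome 13 (1.15 and 1.47) and 17000000 of chromosome 10 (1.22 and 1.27). The exact conditional interval of the ratio reached 1 or below in 4 steps. Those intervals cover counting error only and are too narrow, because sites lie in groups and amplified reads are not independent molecules. The list has no replicate, so no test of the ratios was made.

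**Figure D3:**
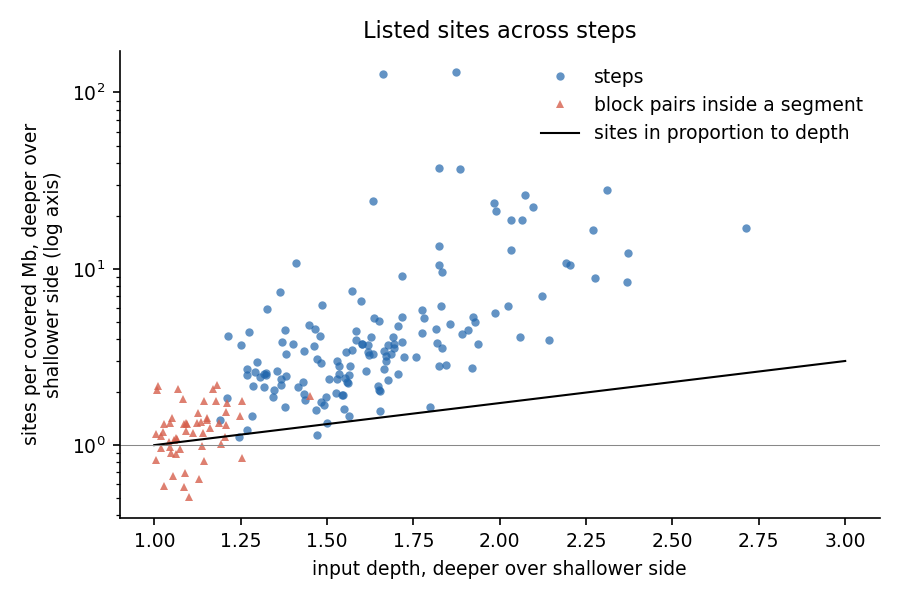
Listed sites per covered Mb on the deeper side of a step over those on the shallower side (vertical log axis) against input depth of the deeper over the shallower side (horizontal axis). Blue points are the 147 steps with a site on both sides, red triangles the 54 block pairs inside a segment, and the black line marks sites in proportion to depth; 142 of 149 steps, counting the 2 with no site on the shallower side, lie above that line.

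The ratio grew with the size of the step. In the 32 steps under 0.5 on the log2 scale the median ratio of sites was 2.52 at a median input fold of 1.32. It was 2.82 in the 61 steps of 0.5 to 0.75 (input fold 1.56) and 4.64 in the 38 steps of 0.75 to 1 (1.82). In the 18 steps of 1 or more it was 12.6 at an input fold of 2.13, with 3415 sites on the deeper sides and 314 on the shallower sides, and its lowest value was 3.92.

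The change was sharp at the resolution of a window. In the median over 149 steps, the last window before a step on the shallower side had 0.79 times and the first window after it 1.14 times the depth of the median window. Sites per Mb went from a median of 4.22 in the former to 15.4 in the latter. Farther out, depths ran between 0.71 and 0.76 on the shallower side and between 1.23 and 1.26 on the deeper side. Sites ran from 2.11 to 4.01 per Mb and from 16.9 to 19 per Mb. The ChIP reads outside sites followed the input, from 0.81 to 1.13 across the step. Since steps were placed at the largest change in input depth, the depth profile is a description, while the list of sites had no part in placing them. With bins near listed sites left out of the input, 148 steps were found and the median ratio of sites was 3.6.

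**Figure D4:**
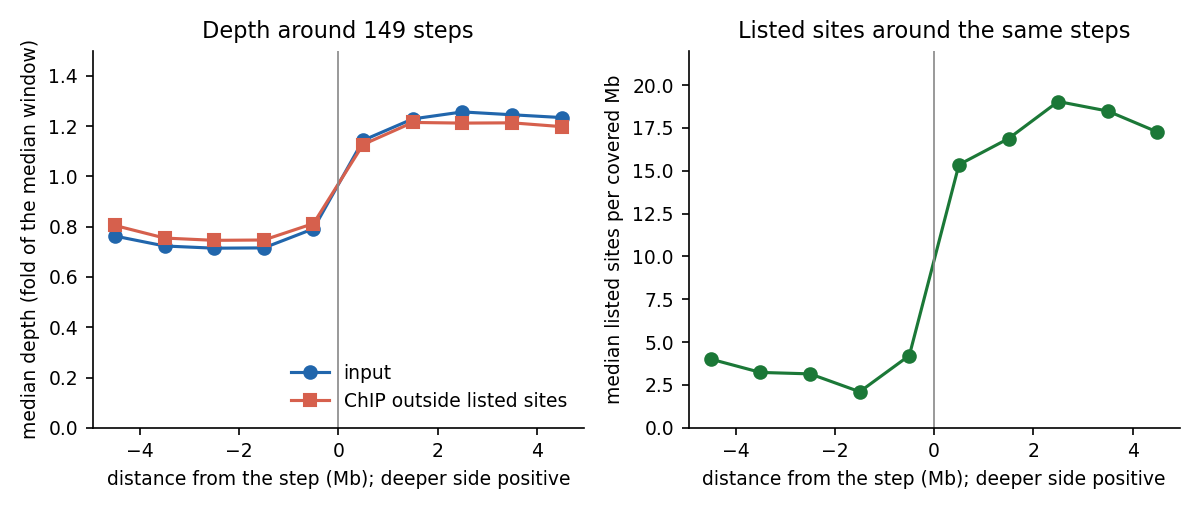
Median over 149 steps of depth as a fold of the median window (left panel: input in blue, ChIP outside listed sites in red) and of listed sites per covered Mb (right panel) against distance from the step in Mb, with the deeper side at positive distances. Each point is the median over 149 windows, 1 per step; sites rise from 4.22 to 15.4 per Mb between the windows next to the step.

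At the 12 largest steps the counts were as follows. On chromosome 17 the shallow segment from 37000001 to 43000000 held 9 sites (1.62 per Mb), against 269 (27.7 per Mb) in 10 windows to its left and 158 (20.0 per Mb) in the 8 windows to its right. The ratios were 17.1 (interval 8.86 to 37.7) and 12.4 (6.34 to 27.5). The step at 24000000 of chromosome 17 separated 29 sites (3.96 per Mb) from 327 (33.2 per Mb), a ratio of 8.39 (5.73 to 12.7). The deep segment of chromosome 2 held 87 sites (18.4 per Mb), against 9 (1.11 per Mb) to its left and 3 (0.66 per Mb) to its right. Its ratios were 16.6 (8.34 to 37.5) and 27.8 (9.22 to 138). The shallow segment from 37000001 of chromosome 17 and both shallow sides on chromosome 2 thus held 9 sites or fewer each.

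At 141000000 of chromosome 1 there were 268 sites on the deeper and 36 on the shallower side, a ratio of 8.81 (6.21 to 12.9). At 96000000 of chromosome 1 there were 244 and 27, a ratio of 10.9 (7.28 to 16.8). The step of chromosome 11 had 234 and 25 sites, a ratio of 10.5 (6.96 to 16.6). The ratio was lowest among the 12 on chromosome 4, with 252 and 30 sites (3.92, 2.68 to 5.93). Chromosome 9 had 219 and 30 sites (7.0, 4.77 to 10.6), chromosome 10 had 165 and 7 (22.4, 10.6 to 56.6) and chromosome 18 had 218 and 4 (26.2, 10.1 to 97.1). All 12 intervals lay above 1.

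The widest contrasts in sites were beside 4 shallow segments. On chromosome 8 the segment chr8:99000001-105000000, at 5.50 input reads per kb, held 0 sites in 5621 covered kb, which allows up to 0.534 sites per Mb by a floor of 3 sites. Its left neighbour had 7.50 and its right neighbour 14.3 sites per Mb, at least 14.1-fold and 26.7-fold higher against that floor. On chromosome 5 the segment from 55000001 to 63000000 held 1 site, against 164 to its left (ratio 128, interval 22.6 to 5067) and 85 to its right (131, 22.8 to 5220). On chromosome 15 the segment from 13000001 to 25000000 had 5 sites in the 10 windows beside 187 in the next segment (36.9, 15.5 to 115). At 90000000 of chromosome 17 there were 156 sites on the deeper and 2 on the shallower side (37.5, 10.2 to 312). These input folds ran from 1.66 to 2.06, below those of the 12 largest steps. The examples are the 6 steps of highest ratio and were chosen after their values were seen.

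The heights of the listed sites bear on the comparison. The authors' peak height ran from 20 to 396, and a list with a fixed lowest height can hold more sites where depth is greater. With heights of 50 or more on both sides the median ratio was 3.54. The median height was higher on the deeper side in 57 steps and lower in 84, and its median over steps was 36 on the deeper and 37 on the shallower side. How the list was called, and whether with the input, is not stated in the labels or file headers.

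Chromosomes differed in the density of sites at the same depth. Over all windows the Spearman correlation of input depth and sites per covered kb was 0.78. It was 0.79 when input depth, but not the density of sites, was taken relative to the chromosome median. Both are over 2321 windows that share libraries and base composition. At 9 to 12 input reads per kb, chromosomes 12 and 13 had 1044 sites in 83 windows, or 13 per Mb, and chromosomes 5 and 15 had 141 sites in 38 windows, or 3.93 per Mb. The ratio was 3.30 (exact interval 2.77 to 3.97, counting error only). At 7 to 9 reads per kb the densities were 8.21 and 1.03 per Mb (ratio 8.0, 5.44 to 12.2), and at 12 to 16 they were 20.5 and 11.0 per Mb (1.87, 1.66 to 2.11). All chromosomes together lay between, with 4.35, 9.53 and 17.3 sites per Mb in these classes. On X, windows at 5 to 7 reads per kb had 5.25 sites per Mb, against 1.99 on chromosomes 1 to 19.

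Set against the chromosome's own median, the order turned. In windows at 0.9 to 1.1 times the median of their chromosome, chromosomes 5 and 15 had 14.5 and chromosomes 12 and 13 had 9.42 sites per Mb, a ratio of the latter to the former of 0.65 (0.57 to 0.73). That ratio was 0.68 (0.47 to 0.97) below 0.7 times the median and 0.81 (0.69 to 0.95) at 0.7 to 0.9. It was 0.50 (0.46 to 0.54) at 1.1 to 1.4 and 0.44 (0.39 to 0.49) at 1.4 or more. Windows of chromosomes 5 and 15 thus held fewer sites than those of chromosomes 12 and 13 at equal depth, and more at an equal place within their chromosome.

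**Figure D5:**
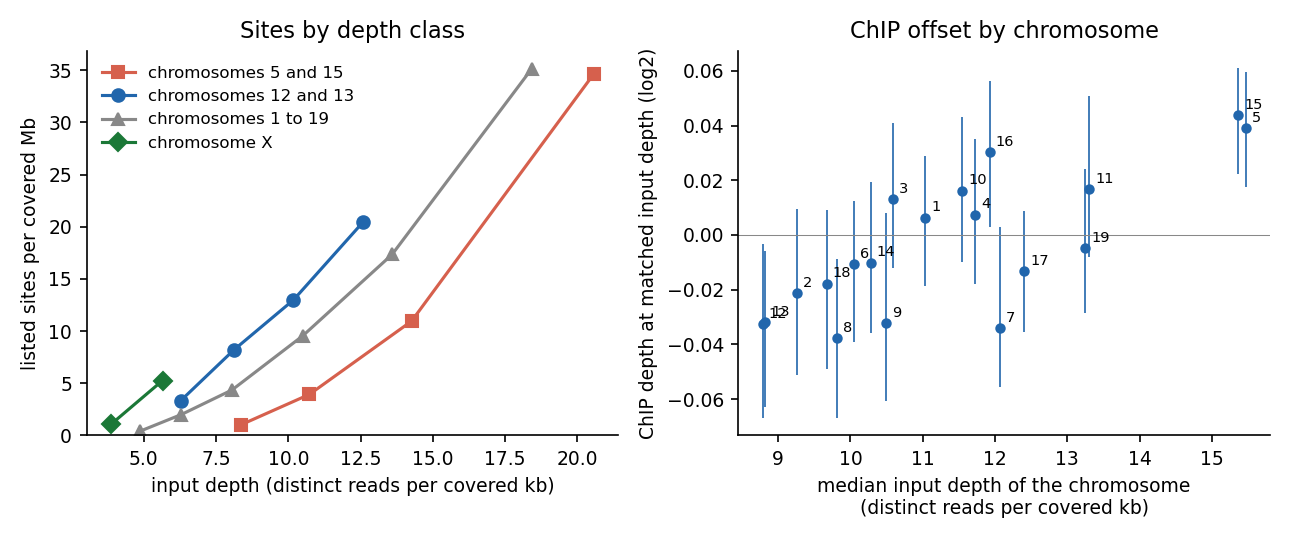
Left panel: listed sites per covered Mb (vertical axis) by class of input depth in distinct reads per covered kb (horizontal axis, class median), for chromosomes 5 and 15, 12 and 13, all of 1 to 19, and X. Right panel: ChIP depth at matched input depth as a log2 offset from the common line within chromosomes (points are medians over windows, lines quartile ranges, labels chromosomes) against the chromosome's median input depth; chromosomes 12 and 13 hold 13 and chromosomes 5 and 15 hold 3.93 sites per Mb in the class of 9 to 12 reads per kb, and the offsets of chromosomes 5 and 15 lie highest.

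Changes shorter than a segment were sought as runs of 1 to 4 windows at least 0.4 (log2) away from the median of their segment. There were 207 such runs, 83 gains and 124 losses, which covered 265 windows, and 155 of the runs were 1 window long. Of all windows, 11.6% lay that far from their segment. All 207 were also present in the ChIP reads with at least 0.5 of the size, a rule that windows at large met in 85.3%, so the count adds little to the likeness of the libraries. Most were small, since 1 gain reached 2-fold and 4 losses fell to 0.5 or less of the segment. Losses held 3.79 sites per Mb, gains 19.9 and all windows 12.9.

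The 5 largest losses differed in how much of the window was covered. The window chr4:143000001-144000000 had 5.68 input reads per kb in a segment at 13.3, a fold of 0.43 (ChIP 0.46), with 834 covered bins and 0 sites. The window chr15:82000001-83000000 had 9.24 in a segment at 21.5, also 0.43 (ChIP 0.42), but with 950 covered bins and 21 sites. Its loss was the only one of the 5 that was as deep in the ChIP reads as in the input. The window chr11:52000001-53000000 had 9.13 in a segment at 18.5 (0.49, ChIP 0.54), with 992 covered bins and 13 sites. On chromosome 7 from 14000001 the depth was 5.70 in a segment at 11.4 (0.50, ChIP 0.55), with 862 covered bins. On chromosome 5 from 146000001 it was 11.0 in a segment at 22 (0.50, ChIP 0.56), with 880 covered bins, and neither of these windows held a site.

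Few covered bins went with losses. Of the 124 losses, 25 (20.2%) had a window under 900 covered bins, against 2 of 83 gains (2.41%) and 102 of 2321 windows (4.39%). A run counted when any of its windows was under 900, so shares of runs and of single windows are not alike. Gaps in the assembly, repeats in which reads cannot be placed and deletions all leave bins without reads, and they cannot be told apart in these files.

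The largest gain was chr17:56000001-58000000, at 17.3 input reads per kb in a segment at 8.10, or 2.08-fold (ChIP 1.87-fold), with 52 sites. The 4 next were chr6:71000001-73000000 (13.8 in a segment at 7.64, 1.79-fold, ChIP 1.72-fold, 41 sites), chr9:13000001-16000000 (10.2 in 6.20, 1.64-fold, ChIP 1.53-fold, 30 sites), chr3:115000001-116000000 (11.6 in 7.08, 1.63-fold, ChIP 1.55-fold, 13 sites) and chr3:8000001-10000000 (12.9 in 8.0, 1.6-fold, ChIP 1.53-fold, 41 sites). The gain of chromosome 6 lay above the highest segment of its chromosome (13.1 reads per kb) and that of chromosome 3 from 8000001 was level with it (12.9). The other 3 gains lay below the highest segments of chromosomes 17, 9 and 3 (17.8, 15.5 and 12.9).

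At a finer grain, windows of 100 kb with at least 50 covered bins were compared with the median of their neighbours over 2 Mb to each side, and stretches of at least 300 kb that lay 1 or more (log2) away were kept. There were 35 such stretches, 31 low and 4 high. Of the 31 low ones, 30 also had fewer ChIP reads per kb than their flanks, beside 87.7% of all blocks of 300 kb with input below their flanks. No listed site was held by 25, beside 40.4% of such blocks, which have the length of the shortest stretches. Of the low stretches, 11 had fewer than 80 of 100 bins covered. The 2 low stretches with 95 or more of 100 bins covered were both on chromosome 11. At chr11:52000001-52300000 input depth was 8.14 reads per kb, against 18.3 in the 500 kb to its left and 9.37 to its right. At chr11:53000001-53400000 it was 7.73, against 9.54 to its left and 19.7 to its right. The flanks that faced each other, at 9.37 and 9.54, were thus shallower than the outer flanks.

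The longest low stretch was chr15:82100001-83200000, with 8.05 input reads per kb against 22.9 and 25 in the flanks of 500 kb. ChIP depth there was 6.49 against 18.4 and 18.7, the mean coverage was 94.5 of 100 bins, and it held 16 listed sites. The longest high stretch was chr17:56100001-57200000, with 21.8 input reads per kb against 8.57 and 13.7 in its flanks, ChIP depth of 16.7 against 7.49 and 10.6, all bins covered and 49 listed sites. On chromosome 19 a stretch from 7800001 to 8600000 had 5.87 reads per kb against 14.5 and 15.4, with 92.1 of 100 bins covered and 0 sites. On chromosome 9 a stretch from 88500001 to 89100000 had 2.55 against 8.14 and 7.95, with 66.5 of 100 bins covered and 0 sites. Whether bins there lack DNA or lack uniquely placed reads cannot be told apart.

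The 161 windows that missed the rule could hide deeper losses, because a stretch without DNA leaves its bins empty. Of these, 64 had no covered bin and 97 had some. Among the 97, 37 had less than 0.5 of the median depth of kept windows in the input, and all 37 also did in the ChIP reads. No share over all windows is at hand for that count. Since the libraries had a Spearman correlation of 0.99 over kept windows, it says little beyond their likeness. The longest runs were 8 windows at chr7:39000001-47000000, 7 at chr12:18000001-25000000 and 6 at chr14:3000001-9000000. Their covered bins had 8.0, 4.72 and 5.27 input reads per kb and 6.94, 4.49 and 5.08 ChIP reads per kb. The run of chromosome 7 held 0 sites, and the others held 16 and 14. In all, 491 of 30691 listed sites lay in windows that missed the rule and 29836 in kept windows, with the rest outside chromosomes 1 to 19.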

How the data were processed

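Both libraries were analysed as the authors deposited them, as counts with 1 line per placed read of 37 bp and no normalization, placed on mm9 (per the submitters' processing notes). Neither aligner nor read filter was given in the sources used here. The authors also deposited a list of Ptf1a peaks as spans of 100 bp with a score, called the authors' peak height, and neither its caller nor the use of the input was given in the sources used here.

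Reads were assigned by their 5′ end to bins of 1000 bp, with 1 read kept per position and strand. ChIP depth used the same windows without bins within 1000 bp of a listed position, with its own ceiling at the 99th percentile (30 reads). Change points were placed per chromosome by optimal partition of log2 depth with a penalty factor of 3 (times the squared noise and the log of the number of windows) and a shortest segment of 5 windows. Neighbouring segments under 0.25 apart were joined. Intervals of site ratios are exact conditional binomial intervals at 95%. They cover counting error only. With 1 library per group no p-value was computed, and no interval is given for medians over steps, which share segments and libraries.

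All chromosome levels, the 12 largest steps and the 10 largest focal runs (at most 5 per direction) are named. The members and lists were chosen with earlier results of these data known. The ChIP offsets, the comparison at matched depth and the 100 kb stretches were added after seeing the data. A planned list of growth, tumour and pancreas genes was not placed on windows, since an mm9 annotation was not used here. The change point search was run on simulated data with steps of equal size, no short segments and less noise than the real windows. That run does not show how well small steps and short segments were placed here. Python 3.11.15, numpy 2.4.6, pandas 2.3.3 and scipy 1.17.1 were used.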

Additional observations from a re-analysis of the deposited data

How the results depend on the processing

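No paired analysis was possible because each group had 1 library and the labels give no replicate numbers. The planned correction for base composition was not run, since it needs the mm9 genome, so how far levels and steps follow base composition was not tested. The ratio of highest to lowest chromosome median ran from 1.72 (ceiling at the 95th percentile) to 1.88 (median over bins). All 133 levels of single chromosomes under alternatives moved by less than the SD over their windows, a wide measure that changes of order need not reach. With 900 covered bins chromosomes 12 and 13 changed places, at 0.825 and 0.818 of the median window. A penalty factor of 6 gave 92 steps, 92 of them also in the ChIP reads. Windows of 0.5 Mb gave 219 steps, 218 of them also in the ChIP reads, 361 focal runs and a median ratio of sites of 3.02. A focal deviation of 0.6 gave 55 focal runs and one of 0.3 gave 359. The median ratio of sites across steps was 1.90 with the height threshold in proportion to depth and 3.84 with 5 windows on each side, and steps placed by the ChIP reads (141, an alternative chosen after seeing the data) gave 3.68. The ratio of sites at matched depth ran from 2.97 (heights of 50 or more) to 3.58 (bins near listed sites left out of the input). The loss on chromosome 15 from 82000001 moved to -1.52 (log2) with the median over bins, and the within-chromosome slope to 0.841. Stretches of 100 kb windows numbered 22 with 80 of 100 bins covered and 76 at a deviation of 0.8. The number of chromosomes with a change in ChIP offset was 3 with a penalty factor of 3 (chromosomes 1, 9 and 10), 0 with a factor of 12 and 3 with no ceiling on bins (chromosomes 9, 11 and 17). With the median over bins it was 1, but chromosome 11 in place of 9. The medians, and the steps and focal runs named by value, kept their direction under the alternatives run where their windows remained. With 900 covered bins the named losses on chromosome 4 from 143000001, chromosome 7 from 14000001 and chromosome 5 from 146000001 lost their only window. Levels were not checked for direction, and that of chromosome 1 went from 1.01 to 0.997 of the median window at that setting. Single steps did not all have more sites on the deeper side: 142 of 149 did with the height threshold in proportion to depth, 148 of 149 with 5 windows on each side or with heights of 50 or more, 195 of 196 with a penalty factor of 1.5, 152 of 153 with 500 covered bins and 218 of 219 with windows of 0.5 Mb. Where a value moved the cause was not tested. Counting error was small for depth, but segments with few sites leave ratios with wide intervals.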

Other observations

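Along chromosome 9 the ChIP depth at matched input depth changed over 1 stretch, chr9:61000001-77000000. Its 16 windows had a median offset of 0.06 (log2, quartiles 0.04 and 0.08) from the common line within chromosomes, against -0.04 in the 58 windows before it and -0.04 in the 47 after it. The stretch had 16 input reads per kb, against 9.29 and 9.82 on its sides, and 27.1 listed sites per Mb, against 10.2 and 10.1. Because ChIP depth at matched input depth placed the stretch, a higher ratio of ChIP to input depth there follows from that choice. In windows at 12 to 16 input reads per kb, the ratio of ChIP to input depth had a median of 0.851 in the stretch (7 windows, 0.812 to 0.857) and 0.809 in the rest of chromosome 9 (21 windows, 0.757 to 0.848). It was 0.846 on chromosomes 5 and 15 (68 windows) and 0.799 on chromosomes 12 and 13 (22 windows). The stretch lay within the deepest segment of chromosome 9, and no other chromosome had such a change at the same setting.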
